A study of Mus musculus with 32 samples.

Results

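The 9 genes described here are Fabp1, Fabp2, Fabp4, Fabp5, Fabp7, Slc27a1, Slc27a2, Slc27a4 and Pparg, which encode fatty acid binding proteins, fatty acid transport proteins and a nuclear receptor for fatty acids. They were chosen by symbol, as the rows of the liver count tables that carry these names, and make up 9 of 41585 gene rows in each table. All 9 passed the filter on low counts in both tables. Fatty acid binding proteins are small cytosolic proteins that hold fatty acids and carry them between membranes, droplets and the nucleus. Proteins of the Slc27 family sit in membranes, take part in fatty acid uptake and couple fatty acids to coenzyme A. PPARγ, the product of Pparg, pairs with a retinoid X receptor to switch on lipid storage genes in adipocytes, is scarce in normal liver and is known to rise in fatty liver.

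Liver RNA was sequenced from male and female C57BL/6 mice, either wild type (WT) or Cyp2b-null, after 8 weeks on normal chow (ND) or on a choline-deficient, high-fat diet with defined amino acids (CDAHFD). The CDAHFD held 62% fat and 0.1% methionine and is used to bring on fatty liver with inflammation and fibrosis. Sex, genotype and diet gave 8 groups with 4 libraries in each, and the 16 libraries of females and the 16 of males were deposited as separate tables. The Cyp2b-null mice lack the adjacent genes Cyp2b9, Cyp2b10 and Cyp2b13, which encode cytochrome P450 enzymes that act on drugs and fatty acids. The nulls were bred by the study on the C57Bl/6J background and the WT mice were bought, so that genotype and source colony cannot be told apart. Total counts per library ran from 2906411 to 10166959.

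The targeted genes were examined first. In WT females, Cyp2b9 had 1371 to 3530 counts per library on ND and 683 to 1151 on CDAHFD, against 4 to 8 and 2 to 7 in Cyp2b-null females. Cyp2b13 had 878 to 2351 and 470 to 977 counts in WT females and at most 1 count in any null female. Male WT livers on ND had 33 to 97 counts of Cyp2b10, against 1 to 9 in null males on ND. In CDAHFD-fed males Cyp2b10 could not check the labels, since WT livers had 0 to 7 counts and null livers 0 to 6. Cyp2b9 could, at 118 to 364 counts per library in CDAHFD-fed WT males but 2 to 7 in the nulls. In ND-fed males Cyp2b9 could not check the labels, as null livers held 4 to 18 counts and WT livers 0 to 15. The hepatocyte markers Alb, Ttr, Apoa1, Hnf4a, Cps1 and Tat were all detected, with Alb the most abundant, as in liver.

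Some libraries stood apart from their groups. On leading log2 fold change distances, the first dimension separated the diets in both sexes, and on the second dimension CDAHFD-fed Cyp2b-null female replicate 3 lay at 1.001 while the 3 others of its group lay between 0.11 and 0.15. Among the males, CDAHFD-fed WT replicate 1 lay at 0.92 on the first dimension, against 1.57 to 1.81 for the 3 others of its group. ND-fed WT males split on the second dimension, with replicates 2 and 4 at 0.72 and 1.06 and replicates 1 and 3 at -0.25 and 0.02. Calls of the 9 genes that changed without ND-fed WT male replicate 2 or 4 are given below with each gene. Without CDAHFD-fed Cyp2b-null female replicate 3, the diet effect in null females kept 5 genes at an adjusted p under 0.05, namely Fabp2 (1.48, adjusted p = 1.03e-05), Fabp4 (1.28, adjusted p = 0.00201), Fabp7 (1.65, adjusted p = 1.52e-05), Slc27a2 (-0.49, adjusted p = 0.039) and Pparg (0.59, adjusted p = 0.00957), each a log2 fold change of CDAHFD over ND, and gained Fabp1. Leaving out CDAHFD-fed WT male replicate 1 changed no call of the 9 genes.

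Levels are given as CPM, each library's counts scaled to a common total, listed in the order of replicates 1 to 4. The female and male tables were normalized separately. Changes are log2 fold changes of CDAHFD over ND, with their standard error (SE) and a p-value adjusted over all genes tested, and a gene is said to rise or fall only where this was under 0.05. On that rule the diet moved 5 of the 9 genes in each sex and genotype. In WT females 5 genes rose, against a background of 13.9% of the 13226 genes tested, and 0 fell, against 10.2%. The edgeR test at an unadjusted p under 0.05 also gave 5 of the 9 in that comparison, against 34.5% of all genes, and DESeq2 called 5, against 25%. In Cyp2b-null females 4 rose (background 16.9%) and 1 fell (background 13.9%). In WT males 3 rose and 2 fell, where 18% and 15% of the 13460 genes tested did so. The counts in Cyp2b-null males were also 3 and 2, with backgrounds of 20.3% and 17.1%. The median log2 fold change of the 9 genes was 0.76 in WT females and 0.49 in null females, and 0.48 and 0.02 in WT and null males. The median of all genes lay between -0.02 and 0.03 in these comparisons.

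**Figure D1:**
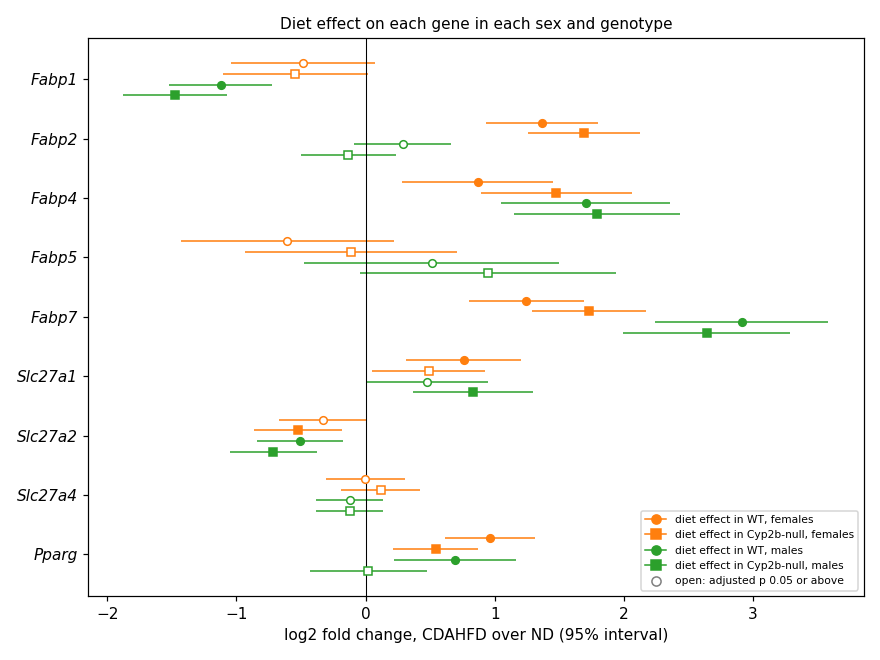
Log2 fold change of CDAHFD over ND (horizontal axis) for each of the 9 genes in WT and Cyp2b-null females and males, with bars for the 95% interval and filled symbols where the adjusted p was under 0.05. Fabp7 and Fabp4 lie to the right of 0 in all 4 comparisons, Fabp2 is far to the right in females with values of 1.37 and 1.69, and Fabp1 is far to the left in males with values of -1.12 and -1.48.

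The scale matters for the smaller changes. Scaling by library size alone, in place of the trimmed mean of M-values (TMM), moved the median of all genes upward by 0.25 to 0.39 on the log2 scale in the 4 diet comparisons. Of the genes called, 57.6% and 55.0% were higher on CDAHFD in WT and null females under TMM and 88.8% and 85.8% under library size alone. In males these shares were 54.6% and 54.3% under TMM and 89.8% and 86.3% under library size alone. The changes below are relative to the TMM scale.

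Per kilobase of the longest protein-coding transcript, which allows levels to be compared between genes, Fabp1 stood highest and Slc27a2 second in all 8 groups. In ND-fed WT females the mean was 6508 ± 2234 CPM per kb (SD, n = 4) for Fabp1, 491 ± 136 for Slc27a2, 50.4 ± 10.6 for Fabp2 and 34.8 ± 19.4 for Fabp5, and the other 5 genes had means of 3.15 to 9.71. Fabp2 and Fabp5 were neighbours in that order whose levels did not differ beyond their spread. ND-fed WT males had 5153 ± 1286 CPM per kb for Fabp1 and 424 ± 75.1 for Slc27a2, with Fabp2 next at 52.9 ± 11.1 and Fabp7 last at 2.44 ± 1.73. In that group Fabp7 overlapped in spread with Slc27a1 at 3.06 ± 0.812 and Fabp4 at 3.38 ± 2.16. In CDAHFD-fed WT males Fabp7 ranked 4 of 9, at 19.6 ± 3.45, a level that overlapped in spread with Fabp5 at 16.7 ± 7.06. Pparg had 5.51 ± 0.221 CPM per kb in ND-fed WT females and 10.8 ± 1.45 in CDAHFD-fed WT females.

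Fabp1 is the fatty acid binding protein of hepatocytes and among the most abundant proteins of their cytosol. In males it fell on CDAHFD in both genotypes. ND-fed WT males had 3069, 2432, 3747 and 2150.2 CPM, and CDAHFD-fed WT males 1436, 1052, 1205 and 1541. Among Cyp2b-null males the values were 2462, 3074, 3547 and 3942 CPM on ND and 1319.9, 1377, 974 and 1014 on CDAHFD. Every CDAHFD-fed male lay below every ND-fed male of its genotype. The log2 fold change was -1.12 (SE 0.19, adjusted p = 0.000102) in WT males and -1.48 (SE 0.19, adjusted p = 3.49e-06) in null males.

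Females covered a wider range of Fabp1 and their groups overlapped. The ND-fed WT females had 2982, 5449, 3059 and 2905 CPM and the CDAHFD-fed WT females 3182, 2384, 2352 and 2361. Null females had 3354, 5304, 3596 and 7427 CPM on ND and 2263, 2839, 5379 and 3027 on CDAHFD. Replicate 2 of the ND-fed WT females stood well above its group, as did replicate 3 of the CDAHFD-fed null females. The change was -0.49 (SE 0.27, adjusted p = 0.209) in WT females and -0.54 (SE 0.27, adjusted p = 0.132) in null females, neither past the threshold. Without CDAHFD-fed Cyp2b-null female replicate 3 the change in null females passed it (-0.86, adjusted p = 0.0156), whereas without ND-fed Cyp2b-null female replicate 4 it shrank to -0.28 (adjusted p = 0.473). In WT females it was -0.22 (adjusted p = 0.614) without ND-fed WT female replicate 2. Without the low-count filter Fabp1 was called in WT females (-0.51, adjusted p = 0.0205) and null females (-0.59, adjusted p = 0.00376). The sex difference of the diet effect, tested in a joint fit of both tables, was -0.62 (SE 0.35, adjusted p = 0.591) in WT and -0.91 (SE 0.35, adjusted p = 0.141) in nulls, neither past the threshold. In nulls it moved to -0.58 (adjusted p = 0.418) without CDAHFD-fed female replicate 3 and to -1.18 (adjusted p = 0.055) without ND-fed female replicate 4, and it was called without the low-count filter (-0.92, adjusted p = 0.00499).

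Fabp2, the form best known from the intestinal epithelium, rose in females. WT females had 52.01, 58.8, 49.2 and 34.5 CPM on ND and 139.6, 109, 88.1 and 161 on CDAHFD. For null females the values were 43.7, 53.1, 53.8 and 57.9 CPM on ND and 134, 138, 237 and 165 on CDAHFD. All CDAHFD-fed females lay above all ND-fed females of their genotype, and replicate 3 of the CDAHFD-fed nulls was highest. The change was 1.37 (SE 0.21, adjusted p = 4.93e-05) in WT females and 1.69 (SE 0.21, adjusted p = 4.38e-06) in null females. 

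In males Fabp2 was not called in either genotype on the TMM scale. WT males had 57.8, 52.8, 58.2 and 35.4 CPM on ND and 62.9, 58.7, 62.5 and 66.1 on CDAHFD, groups that did not overlap but lay close together. Null males had 45.6, 73.6, 77.02 and 93.9 CPM on ND and 74.97, 72.1, 61.8 and 53.9 on CDAHFD, with overlapping groups. The changes were 0.29 (SE 0.18, adjusted p = 0.234) and -0.13 (SE 0.18, adjusted p = 0.599). Without ND-fed WT male replicate 4 the change in WT was 0.15 (adjusted p = 0.557), and in nulls it was 0.0147 (adjusted p = 0.962) without ND-fed Cyp2b-null male replicate 4 and 0.24 (adjusted p = 0.315) when scaled by library size alone. Over the fits that left out 1 library, the change in null males ran from -0.31 to 0.0147 and was never called. Scaled by library size alone, Fabp2 was called in WT males (0.68, adjusted p = 0.00671). The diet effect in nulls differed between the sexes by -1.80 (SE 0.29, adjusted p = 0.00029), and the difference was -1.58 (adjusted p = 0.000906) without CDAHFD-fed Cyp2b-null female replicate 3. In WT mice the difference of -1.06 (SE 0.29, adjusted p = 0.0743) missed the threshold. It passed without CDAHFD-fed WT female replicate 3 (-1.19, adjusted p = 0.0363), without ND-fed WT male replicate 4 (-1.19, adjusted p = 0.0358), in DESeq2 (adjusted p = 0.0275) and without the low-count filter (-1.08, adjusted p = 0.000209).

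Across the comparisons of diet effects between sexes, 1 of the 9 genes was called in WT (Fabp7), where 0.97% of the 14020 genes in the joint fit were, and 1 in nulls (Fabp2), where 3.4% were. Fabp7, known from the developing brain, rose on CDAHFD in every sex and genotype. ND-fed WT females had 6.80, 6.62, 4.41 and 6.06 CPM and CDAHFD-fed WT females 10.7, 18.2, 14.3 and 14.2. Null females had 5.77, 4.41, 3.90 and 6.24 CPM on ND and 19.2, 14.5, 19.8 and 15.8 on CDAHFD. In neither genotype did the female diet groups overlap, and the changes were 1.25 (SE 0.21, adjusted p = 0.00017) and 1.73 (SE 0.21, adjusted p = 4.4e-06).

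In ND-fed WT males Fabp7 was near the floor of detection, with 1.09, 2.11, 4.31 and 1.07 CPM from 5 to 32 counts, and CDAHFD-fed WT males had 13.6, 20.1, 19.5 and 15.9. The null males had 1.97, 4.47, 4.35 and 2.18 CPM on ND and 16.4, 17.3, 22.7 and 21.4 on CDAHFD. All CDAHFD-fed males again lay above all ND-fed males, with changes of 2.91 (SE 0.32, adjusted p = 5.97e-07) in WT and 2.64 (SE 0.31, adjusted p = 9.65e-07) in nulls. The diet effect was larger in WT males than in WT females by 1.69 (SE 0.40, adjusted p = 0.0271). This call rested on each of 8 libraries. It was lost without ND-fed WT female replicate 1 (1.61, adjusted p = 0.0638) or 4 (1.68, adjusted p = 0.0531), CDAHFD-fed WT female replicate 1 (1.58, adjusted p = 0.0584), and ND-fed WT male replicate 1 (1.47, adjusted p = 0.0751), 2 (1.65, adjusted p = 0.0666) or 4 (1.499, adjusted p = 0.0658). Leaving out CDAHFD-fed WT male replicate 2 (1.61, adjusted p = 0.0599) or 3 (1.62, adjusted p = 0.0638) also ended it, as did fitting only the groups compared (1.69, adjusted p = 0.0798). In nulls the difference was 0.93 (SE 0.39, adjusted p = 0.185). For markers of macrophages and Kupffer cells the median sex difference of the diet effect was 1.23 in WT, with 1 of the 7 tested called, and 1.38 in nulls, with 4 called, all 5 of these calls larger in males, and their part in the difference of Fabp7 was not tested.

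Fabp4, the fatty acid binding protein of adipocytes and macrophages, rose in all 4 diet comparisons. WT females had 5.001, 7.01, 14.2 and 6.23 CPM on ND and 11.8, 17.7, 11.3 and 16.1 on CDAHFD, with replicate 3 of the ND group inside the CDAHFD range. Null females had 5.16, 7.01, 5.07 and 6.24 CPM on ND and 14.02, 17.9, 23.1 and 11.9 on CDAHFD, without overlap. The changes were 0.87 (SE 0.28, adjusted p = 0.0281) in WT and 1.48 (SE 0.28, adjusted p = 0.000475) in nulls. The WT call was lost without ND-fed WT female replicate 1 (0.68, adjusted p = 0.11), 2 (0.83, adjusted p = 0.06) or 4 (0.75, adjusted p = 0.0998) and without CDAHFD-fed WT female replicate 2 (0.75, adjusted p = 0.0866) or 4 (0.80, adjusted p = 0.0793). Male levels of Fabp4 were 5.25, 2.11, 3.91 and 0.859 CPM in ND-fed WT, 8.58, 11.1, 11.9 and 8.91 in CDAHFD-fed WT, 3.83, 2.68, 3.31 and 3.92 in ND-fed nulls and 9.65, 9.84, 15.7 and 12.9 in CDAHFD-fed nulls. The male diet groups did not overlap, and the changes were 1.70 (SE 0.32, adjusted p = 0.000263) in WT and 1.79 (SE 0.31, adjusted p = 9.58e-05) in nulls. The sex difference of the diet effect on Fabp4 was 0.86 (SE 0.44, adjusted p = 0.512) in WT and 0.33 (SE 0.43, adjusted p = 0.721) in nulls. In WT it was 0.48 (adjusted p = 0.829) without ND-fed WT female replicate 3, and in nulls it ran from 0.16 without CDAHFD-fed Cyp2b-null male replicate 3 to 0.54 without CDAHFD-fed Cyp2b-null female replicate 3.

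Markers of macrophages and Kupffer cells moved with Fabp4 and Fabp7. The background was 13.9% and 16.9% of all genes rising in WT and null females, and 18% and 20.3% in WT and null males. Of the 8 listed markers (Adgre1, Cd68, Clec4f, Cd5l, Gpnmb, Trem2, Lgals3, Itgam), 7 were tested and 6 rose in each of the 4 diet comparisons. The exception was Clec4f, which was called in WT males without CDAHFD-fed WT male replicate 1 (0.55, adjusted p = 0.0457). Clec4f was negative in females, at -0.53 in WT and -0.10 (adjusted p = 0.747) in nulls, neither called. Trem2 had 0 counts in all 32 libraries. The summed level of the listed markers in WT females was 362, 446, 274 and 291 CPM on ND and 646, 811, 859.6 and 673 on CDAHFD. In null females it was 368, 374, 239 and 365 CPM on ND and 945, 883, 1029.8 and 734 on CDAHFD. Every female group on CDAHFD lay above its ND group, and so did the males. WT males summed to 167, 156, 236 and 111 CPM on ND and 629.6, 1204, 1331 and 1008 on CDAHFD, and null males to 186, 152, 158 and 132 and 1074, 899, 1523 and 1292. Pooled over both diets, the most abundant of these markers was Cd5l, at a mean of 172 CPM over all libraries. This order need not hold within each diet. The marker with the largest change was Gpnmb, a glycoprotein of lipid-laden macrophages, with 0 to 2 counts in ND-fed WT females and 654 to 1453 in CDAHFD-fed WT females, and 0 to 2 and 1256 to 4850 in WT males. The part of these cells in the changes of Fabp4 and Fabp7 was not tested, and in whole liver more cells of a type and more RNA per cell, or fewer cells and less RNA, cannot be told apart. The adipocyte markers Adipoq, Plin1, Lep, Retn, Cfd and Cidea summed to at most 0.678 CPM in any female library and 3.25 in any WT male library, with Lep at 0 in all libraries. ND-fed null males had 3.17, 35.1, 6.63 and 16.6 CPM, of which Cfd, the most abundant adipocyte marker, made up a mean of 14.4.

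Fabp5, the epidermal form, is reported as uncertain. A processed pseudogene, Gm6166, matches 98.3% of 409 aligned bases of its transcript and had 3554 counts over all libraries, against 3726 for Fabp5. The further processed pseudogenes Gm14328, Fabp5l2, Gm13998 and Gm6100, at 93.6% to 97.3% identity, were not among the counted genes. Reads shared with them could not be checked. Fabp5 ran from 14.2 to 53.9 CPM in ND-fed WT females and from 14.1 to 26.9 in CDAHFD-fed WT females. The male ranges were 4.08 to 24.8 CPM in ND-fed WT and 8.77 to 24.1 in CDAHFD-fed WT, and the diet groups overlapped in nulls as well. Null females ran from 8.41 to 42.5 on ND and from 16.5 to 32.6 on CDAHFD, and null males from 4.70 to 24.6 and from 13.3 to 30.6. The log2 fold changes were -0.61 (SE 0.40, adjusted p = 0.297) in WT females, -0.11 (SE 0.39, adjusted p = 0.854) in null females, 0.51 (SE 0.47, adjusted p = 0.439) in WT males and 0.95 (SE 0.48, adjusted p = 0.127) in null males. The value in null females moved to -0.28 (adjusted p = 0.669) without CDAHFD-fed Cyp2b-null female replicate 3 and took the other sign, at 0.26 (adjusted p = 0.683) without ND-fed Cyp2b-null female replicate 4 and 0.046 (adjusted p = 0.947) without CDAHFD-fed Cyp2b-null female replicate 4, and in WT females the change was -0.33 (adjusted p = 0.622) without ND-fed WT female replicate 3. When 1 library was left out, the change ran from -0.43 to 0.26 in null females and from 0.25 to 1.26 in WT males. Fabp5 passed the threshold in WT males without ND-fed WT male replicate 3 (1.26, adjusted p = 0.0487) and in null males without ND-fed Cyp2b-null male replicate 3 (1.65, adjusted p = 0.0108). In null males it was also called when scaled by library size alone (1.33, adjusted p = 0.0333) and without the low-count filter (0.94, adjusted p = 1.97e-05). The same call was gained with replicate number fitted as a block (1.06, adjusted p = 0.00858). The unfiltered fit called it lower on CDAHFD in WT females (-0.63, adjusted p = 0.00713), and called the sex difference of its diet effect, which with the filter was 1.14 (SE 0.67, adjusted p = 0.615) in WT and 1.08 (SE 0.68, adjusted p = 0.393) in nulls, in WT (1.11, adjusted p = 0.00322) and in nulls (1.07, adjusted p = 0.00369). With the filter and 1 library left out, this difference ran from 0.86 to 1.90 in WT and from 0.70 to 1.80 in nulls, never called. Summing the counts of Fabp5 and Gm6166 alone moved none of the 13 comparisons of Fabp5 across the threshold.

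**Figure D2:**
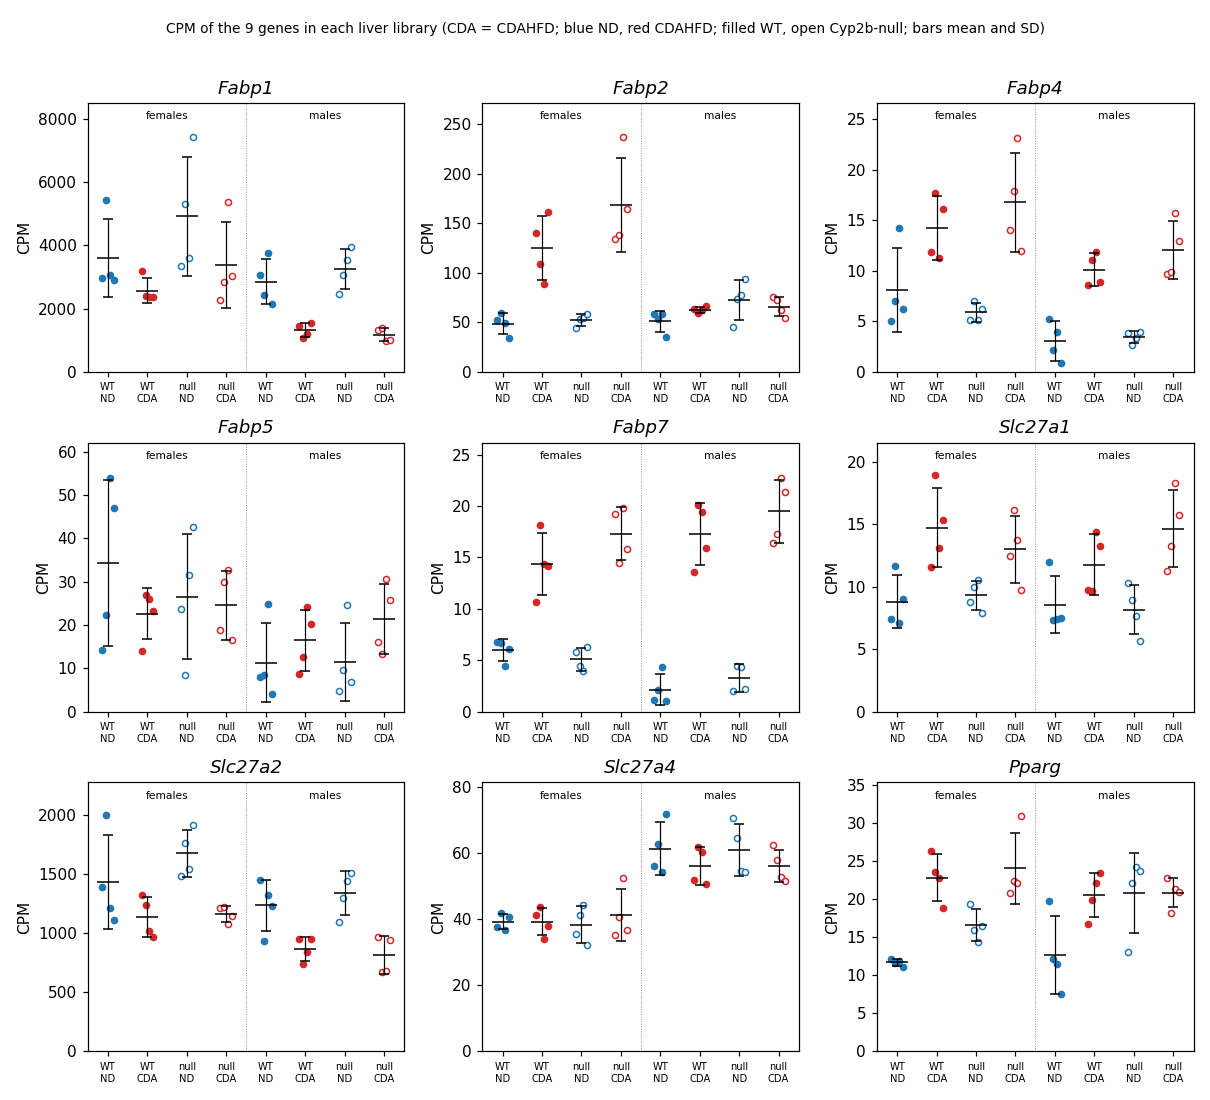
CPM of each of the 9 genes (vertical axes) in every library, by genotype and diet with females left and males right, where points are libraries and bars show the mean and SD of the 4 libraries. Fabp7 lies between 1.07 and 6.80 CPM in all ND-fed libraries and between 10.7 and 22.7 in all CDAHFD-fed libraries, and Pparg in ND-fed WT females lies between 11.1 and 12.2, below the other female groups.

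Among the membrane proteins, Slc27a2 encodes a transporter and very long chain acyl-CoA synthetase that is typical of liver and kidney. It fell on CDAHFD in 3 of the 4 comparisons. WT females had 1389.8, 2003, 1218 and 1115 CPM on ND and 1323, 1238, 1022 and 970.1 on CDAHFD, overlapping groups with a change of -0.33 (SE 0.16, adjusted p = 0.156). That change was -0.13 (adjusted p = 0.585) without ND-fed WT female replicate 2, and on the library-size scale it was 0.0023 (adjusted p = 0.992). Null females had 1488, 1762, 1541 and 1917 CPM on ND and 1217, 1223, 1080.1 and 1149 on CDAHFD. These groups did not overlap, with a change of -0.52 (SE 0.16, adjusted p = 0.0189). The diet by genotype interaction in females was -0.19 (SE 0.23, adjusted p = 0.865), and ran from -0.40 to -0.09 when 1 library was left out, so that a difference between the genotypes was not shown.

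WT males had 1452, 937, 1327 and 1229 CPM of Slc27a2 on ND and 952, 737, 841 and 948 on CDAHFD, and replicate 2 of the ND group fell inside the CDAHFD range. Null males had 1093, 1303, 1445 and 1515 and 965, 671, 682 and 946, without overlap. The changes were -0.51 (SE 0.16, adjusted p = 0.0192) in WT and -0.71 (SE 0.16, adjusted p = 0.00138) in null males. Calls were lost without ND-fed WT male replicate 1 (-0.42, adjusted p = 0.0684) or CDAHFD-fed WT male replicate 2 (-0.44, adjusted p = 0.0661) in WT males and without ND-fed Cyp2b-null female replicate 4 (-0.45, adjusted p = 0.0618) in null females. On the library-size scale, where the median gene shifts upward, Slc27a2 kept its negative sign in these 3 comparisons but lost the 3 calls, at -0.27, adjusted p = 0.197 in null females, -0.12, adjusted p = 0.548 in WT males and -0.36, adjusted p = 0.0557 in null males.

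The hepatocyte markers moved in the direction of Fabp1 and Slc27a2. Of the 6 markers, 5 fell in WT females, 5 in null females (6 without CDAHFD-fed Cyp2b-null female replicate 3), 6 in WT males and 4 in null males. The shares of all genes that fell were, in that order, 10.2%, 13.9%, 15% and 17.1%. Their summed level was 152735 ± 27734 CPM (SD, n = 4) in ND-fed and 89487 ± 11218 in CDAHFD-fed WT females, and 152844 ± 15525 and 94990.5 ± 17077 in null females. In males it was 119320.0 ± 7097 and 75843 ± 18852 CPM in WT and 109079 ± 5931 and 69212 ± 11939.6 in nulls. Alb was the most abundant of them and none was at 0. The part of hepatocyte content in these changes was not tested.

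Slc27a1, the transporter of muscle and adipose tissue, was among the lowest of the 9 genes per kilobase. WT females had 7.40, 11.7, 7.12 and 9.004 CPM on ND and 11.6, 18.9, 13.1 and 15.3 on CDAHFD, with the lowest CDAHFD value just under the highest ND value. It rose in WT females by 0.76 (SE 0.21, adjusted p = 0.0117) and in null males by 0.83 (SE 0.22, adjusted p = 0.00548), where the ND values of 10.3, 8.95, 7.66 and 5.67 CPM lay below the CDAHFD values of 11.2, 13.2, 18.3 and 15.8. The call in WT females was lost without CDAHFD-fed WT female replicate 2 (0.62, adjusted p = 0.0518), which together with Fabp4 brought the count of called genes in that comparison from 5 to 3. In null females the change was 0.49 (SE 0.21, adjusted p = 0.0824) and in WT males 0.48 (SE 0.23, adjusted p = 0.115). These passed without CDAHFD-fed Cyp2b-null female replicate 4 (0.62, adjusted p = 0.0361) and without ND-fed WT male replicate 1 (0.68, adjusted p = 0.0321), whose 11.9 CPM stood above 7.32 to 7.51 in its group. Both also passed when scaled by library size alone, at 0.73, adjusted p = 0.00835 in null females and 0.88, adjusted p = 0.00946 in WT males. The interaction of diet and genotype was -0.27 (SE 0.30, adjusted p = 0.851) in females and 0.35 (SE 0.32, adjusted p = 0.9) in males, and came down to -0.14 (adjusted p = 0.934) without CDAHFD-fed WT female replicate 2 and 0.15 (adjusted p = 0.955) without ND-fed WT male replicate 1.

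Slc27a4, the form of intestine and skin, was called in no diet comparison in edgeR or DESeq2, and its unadjusted p ran from 0.331 to 0.988. Its level ran from 34.2 to 43.7 CPM in WT females and from 50.7 to 72.1 in WT males over both diets. The log2 fold changes lay between -0.12 in WT males and 0.12 in null females. The value in null females took the other sign without CDAHFD-fed Cyp2b-null female replicate 3, at -0.0186 (adjusted p = 0.937), and the 3 others, of -0.00217 in WT females, -0.12 in WT males and -0.12 in null males, did so when scaled by library size alone, at 0.32 (adjusted p = 0.0839), 0.27 (adjusted p = 0.122) and 0.25 (adjusted p = 0.153).

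Pparg rose on CDAHFD in WT females. The ND-fed WT females had 12.2, 11.7, 11.9 and 11.1 CPM, the narrowest spread of the 8 groups, and the CDAHFD-fed WT females 26.3, 23.5, 22.8 and 18.9. Null females had 19.4, 16.02, 14.4 and 16.5 CPM on ND and 20.8, 22.4, 22.2 and 30.97 on CDAHFD. The difference between the genotypes on ND was 0.51 (SE 0.17, adjusted p = 0.674) and not called. In both genotypes all CDAHFD values lay above all ND values, and replicate 4 of the CDAHFD-fed nulls stood well above its group. The change was 0.96 (SE 0.17, adjusted p = 0.000206) in WT and 0.54 (SE 0.16, adjusted p = 0.0133) in null females. Without CDAHFD-fed Cyp2b-null female replicate 4 the call in nulls was lost (0.39, adjusted p = 0.0672), as it was without the low-count filter (0.49, adjusted p = 0.0715).

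In males Pparg ran to 19.7, 12.2, 11.4 and 7.51 CPM in ND-fed WT and 16.8, 19.9, 22.1 and 23.4 in CDAHFD-fed WT, where replicate 1 of the ND group lay inside the CDAHFD range. Null males had 13.01, 22.1, 24.2 and 23.8 CPM on ND and 22.8, 18.3, 21.4 and 21.01 on CDAHFD. The change was 0.69 (SE 0.23, adjusted p = 0.0235) in WT males and 0.02 (SE 0.22, adjusted p = 0.948) in null males, whose groups overlapped. In null males it was -0.17 (adjusted p = 0.565) without ND-fed Cyp2b-null male replicate 1 and -0.0247 (adjusted p = 0.95) without CDAHFD-fed Cyp2b-null male replicate 1. The adipocyte markers, which are described above for ND-fed males, summed to at most 0.791 CPM in any CDAHFD-fed male, and their part in these Pparg values was not tested. The WT call was lost without ND-fed WT male replicate 3 (0.64, adjusted p = 0.0622) or 4 (0.52, adjusted p = 0.0795) and without CDAHFD-fed WT male replicate 3 (0.65, adjusted p = 0.0609) or 4 (0.62, adjusted p = 0.0642). That the diet effect was called in WT and not in null males does not make them different, and the interaction was -0.67 (SE 0.32, adjusted p = 0.82) in males and -0.42 (SE 0.23, adjusted p = 0.76) in females.

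Between genotypes on the same diet, edgeR called 0 of the 9 genes in either sex. The background was 0.0756% of genes on ND and 0.0227% on CDAHFD in females, and 0.0371% and 0.0297% in males. At an unadjusted p under 0.05, 1 gene passed on each diet in females, where 5.75% of all genes did on ND and 5.83% on CDAHFD. In males 2 passed on ND and 0 on CDAHFD, against 8.26% and 3.62%. DESeq2 called 0 of the 9 throughout, with backgrounds of 0.174% and 0.0378% in females and 0.535% and 0.0297% in males. Pparg on ND was the gene with the lowest unadjusted p in each sex, higher in nulls than in WT by 0.51 (SE 0.17, adjusted p = 0.674) in females, where the groups did not overlap, and by 0.68 (SE 0.23, adjusted p = 0.397) in males, where they did. Its unadjusted p was 0.0079 in females and 0.00725 in males, and without the low-count filter it was called in males (0.68, adjusted p = 0.0445). The summed adipocyte markers of ND-fed males were at 3.17, 35.1, 6.63 and 16.6 CPM in nulls and at most 3.25 in WT, with replicate 1 the lowest null library for both, and their part in the Pparg difference was not tested. Fabp2 also passed unadjusted in CDAHFD-fed females, at 0.44 (SE 0.20, adjusted p = 0.826) with all libraries and 0.23 (adjusted p = 1) without CDAHFD-fed Cyp2b-null female replicate 3, and in ND-fed males, at 0.49 (SE 0.18, adjusted p = 0.433). The interaction of diet and genotype was called for 0 of the 9 genes in each sex, with backgrounds of 0% in females and 0.00743% in males. Without adjustment 0 of them passed in females and 1, Pparg, in males, against 6.28% and 6.07% of all genes, and DESeq2 called 0 in both, against 0.0151% and 0.0223%.

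The sexes were compared directly in ND-fed WT mice, in the joint fit of both tables, where 4 of the 9 genes differed against 17.8% of the 14020 genes tested. Slc27a4 was higher in males, at 62.5 ± 8.19 CPM (SD, n = 4) against 39.02 ± 2.23 in females and without overlap, a log2 difference of 0.68 (SE 0.14, adjusted p = 0.000623). Fabp7 was lower in males, at 2.18 ± 1.55 against 5.92 ± 1.07 CPM (-1.35 (SE 0.32, adjusted p = 0.00336)). Fabp4 was lower in males as well, at 3.08 ± 1.97 against 8.05 ± 4.14 CPM (-1.29 (SE 0.34, adjusted p = 0.0079)). The uncertain Fabp5 was at 11.5 ± 9.36 in males and 34.1 ± 19.1 in females (-1.51 (SE 0.48, adjusted p = 0.0272)). Without ND-fed WT female replicate 3 both Fabp4 (-0.90, adjusted p = 0.0799) and Fabp5 (-1.23, adjusted p = 0.112) lost the call, leaving 2 genes. Fitting replicate number as a block cannot test this comparison, since replicates lie within a sex and the contrast then set male replicate 4 against female replicate 1. In that fit Fabp4 (-1.15, adjusted p = 0.123) and Fabp5 (-1.12, adjusted p = 0.205) were not called, from which nothing is concluded. Fabp5 also lost it without ND-fed WT female replicate 4 (-1.29, adjusted p = 0.0912) and ND-fed WT male replicate 1 (-1.37, adjusted p = 0.0687), 2 (-1.38, adjusted p = 0.0867) or 4 (-1.26, adjusted p = 0.0954), and Fabp4 when only the groups compared were fitted (-1.30, adjusted p = 0.0705). In this comparison 5 of the 7 tested macrophage markers were lower in males. The 1 adipocyte marker tested was higher in males, by 6.49, a value set against levels at or near 0. All listed adipocyte markers together had 0, 0, 0.678 and 0 CPM in ND-fed WT females and 2.53, 3.25, 2.42 and 0 in ND-fed WT males. The part of either cell type in the lower Fabp4 and Fabp7 was not tested. Sex and deposited table coincide, so that a difference in handling between the tables cannot be told apart from sex.

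Genes that act beside these 9 were taken from fixed lists. The other fatty acid binding proteins Fabp3, Fabp6, Fabp9 and Fabp12 were too low to be tested in any table. Of the other Slc27 genes, Slc27a5, the bile acid and fatty acid CoA ligase of liver, was tested and fell in all 4 diet comparisons, by -1.47 and -1.07 in WT and null females and -1.22 and -1.37 in WT and null males. Slc27a3 and Slc27a6 did not pass the filter. Of the uptake proteins Cd36, Got2 and Cav1, the scavenger receptor Cd36 rose in all 4 comparisons, by 1.27 and 1.05 in females and 2.76 and 1.86 in males.

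The long chain acyl-CoA synthetases trap fatty acids inside the cell as coenzyme A esters. Of the 5 listed, Acsl6 did not pass the filter. Of the 4 tested, 3 fell in WT and in null females, 3 in WT males and 2 in null males. The shares of all genes that fell were, in that order, 10.2%, 13.9%, 15% and 17.1%. Acsl1 fell by -1.04 and -1.35 in WT and null females and by -1.33 and -1.49 in WT and null males, and Acsl5 also fell in all 4 comparisons. Acsl3 changed by -0.42 (adjusted p = 0.127) in null males, where it missed the threshold, and fell in the 3 other comparisons. Acsl4 rose in males, by 0.56 in WT and 0.50 in nulls. The list's median ranged from -1.13 in WT females to -0.66 in null males, beside all-gene medians near 0. Hepatocyte markers fell in the same comparisons as Slc27a5 and the synthetases, with 5 of 6 called lower in WT females, 5 in null females, 6 in WT males and 4 in null males and medians of -0.80, -0.75, -0.73 and -0.52, and their part in these falls was not tested.

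Genes known as PPARγ targets in fatty liver or adipocytes were counted next. Of the 8 tested, 6 rose in WT females and 5 in null females, and 4 rose and 2 fell in WT males and likewise in null males. Of all genes, 13.9% rose in WT females and 16.9% in null females. The shares in males were 18% higher and 15% lower in WT, and 20.3% and 17.1% in nulls. The list's median was 1.17 and 0.86 in WT and null females and 1.23 and 0.69 in WT and null males. Lpl, which releases fatty acids from circulating lipoproteins, rose by 3.28 and 3.44 in WT and null females and 3.92 and 3.89 in WT and null males. The lipid droplet genes Cidec and Plin4 rose by 3.85 and 3.49 in WT females, by 3.32 and 2.43 in null females and by 3.33 and 2.18 in WT males. In null males, where Pparg itself was at 0.02, Cidec rose by 1.53 and Plin4 by 1.55. Fitm1 and G0s2 fell in males and were singled out after their values were seen, at -1.44 and -1.45 in WT males and -2.15 and -2.43 in null males. Cd36 belongs to this list as well as to the uptake proteins, and Adipoq, Plin1 and Cidea, none of them tested, also to the adipocyte markers. Without CDAHFD-fed Cyp2b-null female replicate 3, 4 of the 8 rose in null females. Markers of macrophages and Kupffer cells rose in the same comparisons, 6 of the 7 tested in each. The adipocyte marker Cfd, the single one tested, fell in WT males (-3.15, adjusted p = 0.0308) and null males (-5.89, adjusted p = 1.41e-05), and the call in WT males was lost without CDAHFD-fed WT male replicate 1 (-3.11, adjusted p = 0.0568). Summed adipocyte markers were at 3.17, 35.1, 6.63 and 16.6 CPM in ND-fed null males and 0.791, 0.205, 0.247 and 0.202 in CDAHFD-fed null males. They reached at most 0.614 CPM in CDAHFD-fed WT males. Cfd thus passed the low-count filter only through ND-fed males, where it was high, so its falls are given as values and carry no weight as tests. The part of these cells in the changes of the PPARγ targets was not tested.

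Receptors and coactivators that work beside PPARγ formed a list of 7, all tested (Ppara, Ppard, Rxra, Rxrb, Rxrg, Ppargc1a, Ppargc1b). Of these, 0 rose and 1 fell in each of WT females, null females and null males, where 10.2%, 13.9% and 17.1% of all genes fell. In WT males edgeR called 0, as did DESeq2 and the unadjusted test, and 2 were called when scaled by library size alone. The gene that fell in WT females was the coactivator Ppargc1a (-0.74, adjusted p = 0.0353). Ppara, the main fatty acid receptor of hepatocytes, fell in null females (-0.77, adjusted p = 0.00676) and null males (-0.43, adjusted p = 0.0326), and was at -0.10 and -0.07 in WT females and males. Its interaction of diet and genotype was -0.67 (adjusted p = 0.76) in females and -0.36 (adjusted p = 0.86) in males. Of 13 tested genes that respond to PPARα, 3 rose and 1 fell in WT females, 1 rose and 5 fell in null females, 3 rose and 3 fell in WT males, and 1 rose and 5 fell in null males. Without CDAHFD-fed Cyp2b-null female replicate 3, 1 rose and 2 fell in null females. Of all genes, 13.9% rose and 10.2% fell in WT females, and 16.9% and 13.9% in null females. In males these shares were 18% and 15% in WT and 20.3% and 17.1% in nulls. The hepatokine Fgf21 rose in WT females (3.27) and WT males (2.94), and was at 1.28 (adjusted p = 0.0585) in null females and 1.07 (adjusted p = 0.19) in null males. Its interaction of diet and genotype was -1.99 (adjusted p = 0.76) in females and -1.87 (adjusted p = 0.83) in males. The thioesterase gene Acot1 fell in WT males (-1.81), null males (-2.53) and null females (-1.80), and was at -1.37 (adjusted p = 0.0987) in WT females. Vnn1 rose by 1.21 in WT females, 0.88 in null females (call lost without CDAHFD-fed Cyp2b-null female replicate 3, 0.92, adjusted p = 0.0572) and 1.12 in WT males, and was at 0.21 (adjusted p = 0.5) in null males. Acaa1b, a peroxisomal thiolase, fell by -1.01 in WT males and -1.71 in null males, and was at -0.51 (adjusted p = 0.0896) and -0.32 (adjusted p = 0.265) in WT and null females.

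Markers of the remaining liver cell types were counted in the same way. Of 6 stellate cell and myofibroblast markers, 3 rose in WT females, 4 in null females (3 without CDAHFD-fed Cyp2b-null female replicate 3), 3 in WT males and 5 in null males. Of 5 cholangiocyte markers (Krt7, Krt19, Epcam, Sox9, Spp1), 2 rose in WT females, 3 in null females and 2 in both male comparisons. The most abundant was Spp1, which rose by 1.95 and 2.30 in WT and null females and 2.97 and 3.47 in WT and null males. Among 7 endothelial markers, 2 fell in WT females and 3 in null females, 1 rose and 1 fell in WT males, and 3 rose in null males. Of all genes, 13.9% rose and 10.2% fell in WT females, and 16.9% and 13.9% in null females. The shares in males were 18% and 15% in WT and 20.3% and 17.1% in nulls, and the endothelial counts in WT males were near them. Their part in the changes of the 9 genes was not tested.

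Across all 32 libraries the 9 genes did not vary as 1 block. Fabp1 and Slc27a2 had a Pearson correlation of log2 CPM of 0.86, and Fabp4 and Fabp7 of 0.83. The correlation was -0.58 for Fabp7 and Slc27a2, and 0.10 for Fabp1 and Fabp2. Libraries share diet, sex and table, and correlation within groups was not tested, so these values describe the series. Over 12977 genes, the closest to each were Ech1 for Fabp1 (0.93), Clu for Fabp2 (0.82), Fcer1g for Fabp4 (0.95), Ccl6 for Fabp7 (0.96), Lpcat2 for Slc27a1 (0.84), Zfand6 for Slc27a2 (0.95), Tmem243 for Slc27a4 (0.92) and Cidec for Pparg (0.79). The next closest to Fabp4 were Tmsb10 (0.94) and C1qb (0.93), and to Fabp7 Ctss (0.96) and Hmox1 (0.96). For Fabp5 the closest gene was its pseudogene Gm6166 (0.91).

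On the genome (GRCm38.p6), Fabp1 lies at chr6:71199827-71205023 and Pparg on the same chromosome at chr6:115360951-115490399, both on the + strand. Fabp4, at chr3:10204088-10208576 on the - strand, and Fabp5, at chr3:10012548-10016607 on the + strand, sit in a cluster with Fabp9 (chr3:10193621-10197283) and Fabp12 (chr3:10244209-10301183). Fabp2 is elsewhere on that chromosome, at chr3:122895072-122899506, and Fabp7 at chr10:57784881-57788450. Slc27a1 lies at chr8:71568882-71587302, and Slc27a4 (chr2:29802634-29817522) and Slc27a2 (chr2:126552407-126588243) share a chromosome. All 9 are annotated as protein-coding. The 5 binding protein transcripts have 3 or 4 exons and the 3 transporter transcripts 10 to 14. On the opposite strand, Fabp2 overlaps 4933405D12Rik, which had 18 counts in all against 14677, and Slc27a2 overlaps Gm26697, which had 122 against 206698. Pparg overlaps Gm44079 on the opposite strand. Whether the counting used strand is not given in the sources used here, so reads from such partners cannot be told apart.

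The promoters of the 9 genes were searched for the sequence that PPAR and RXR pairs are known to bind, AGGTCANAGGTCA, a direct repeat with a 1-base gap, on both strands in the 250 bases before each RefSeq start. The RefSeq promoter table (GRCm38.p6) held 7 of the 9 genes with 11 entries, and Fabp4 and Fabp5 had none. RefSeq starts differ from the GENCODE positions given above for some genes. The window of Slc27a2, chr2:126552774-126553023, lies inside the gene as GENCODE places it, and that of Fabp7 runs to 57784922, past the GENCODE start. The first Pparg window, to 115361143, also passes it, and both other Pparg windows and 2 of the 3 Slc27a1 windows lie inside their genes. Fabp1 had a match with 1 mismatch, AGGCCATAGGTCA, on the - strand. A match with at most 1 mismatch is in 159 of 32851 promoters of the same length (0.484%). The best matches of the other 6 genes had 3 to 5 mismatches. A match with at most 3 is in 21.3% of promoters, with at most 4 in 74.5% and with at most 5 in 99.6%. The Fabp1 sequence is shown because it holds the closest match, with the match in capitals as read on the + strand. Its RefSeq window runs to 71199878, and the match begins 67 bases before the RefSeq start. GENCODE places the gene start inside that window, at 71199827, and only the 198 bases before it are printed, chr6:71199629-71199826.
Fabp1: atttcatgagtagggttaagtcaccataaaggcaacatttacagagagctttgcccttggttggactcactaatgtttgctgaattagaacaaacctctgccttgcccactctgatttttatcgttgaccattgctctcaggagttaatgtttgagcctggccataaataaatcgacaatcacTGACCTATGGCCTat
The match ends at 71199824, before either start. It is a likeness of letters in this window and does not show binding, and a gene without a close match may still be a target.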

How the data were processed

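Gene counts of 32 mouse liver libraries, 4 in each of 8 groups, were used as deposited by the authors, whose notes name FastQC and Trimmomatic for the reads, GSNAP as aligner, GRCm38.p6 as genome and Subread for counting. Groups came from the labels. The 16 libraries of each sex were fitted together in edgeR 4.0.16 (R 4.3.3): TMM scaling, filterByExpr with a minimum count of 10, glmQLFit and glmQLFTest with 1 coefficient per group, and Benjamini-Hochberg adjustment over all genes tested, called under 0.05. Sex comparisons used a joint fit of both tables. DESeq2 1.42.0, other scalings and filters, a replicate block and leaving out each library were alternatives. CPM are TMM-scaled, with a prior count of 2 for correlations. The labels give 4 samples per group without saying that they are separate animals, so p-values measure the spread between these samples. No pair of the 48 pairs of libraries within groups agreed within sampling noise (chi-square per degree of freedom at least 3.34). Lengths are of the longest protein-coding GENCODE vM21 transcript, since for Fabp4, Fabp5 and Slc27a1 the longest transcript of any kind, which had been planned, is a retained intron. The distances between libraries and the pseudogene sum were added after the data were seen. Date-like gene symbols were kept and made unique. The members and lists were chosen with earlier results of these data known. All 9 genes are named, and of each list up to 4 genes with the largest diet effect in WT mice among those called in either table whose mean reached 1 CPM. Any gene of a list of 5 or fewer could be named. Likeness names up to 3 genes with the highest Pearson correlation.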

Additional observations from a re-analysis of the deposited data

Results flagged for a closer look

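In 4 of the 72 sets of 4 libraries (9 genes in 8 groups), 1 library lay far from the other 3. Chance alone does this in about 1 in 20 such sets. Fabp1 was at 5449 CPM in ND-fed WT female replicate 2, where the others had 2905 to 3059, and at 3182 CPM in CDAHFD-fed WT female replicate 1, where the others had 2352 to 2384. Slc27a1 was at 11.9 CPM in ND-fed WT male replicate 1, where the others had 7.32 to 7.51. Pparg was at 31.0 CPM in CDAHFD-fed Cyp2b-null female replicate 4, where the others had 20.8 to 22.4.

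The test of the sex difference of the diet effect, in the joint fit, called 1 of the 9 genes in WT mice, where 0.97% of the 14020 genes were called, and 1 in nulls, where 3.4% were. For Fabp7 in WT mice the log2 fold change was 1.69 higher in males than in females (adjusted p = 0.0271), a call that was lost in 8 of the 16 fits that left out 1 library and when only the groups compared were fitted (adjusted p = 0.0798). For Fabp2 in Cyp2b-null mice the difference of males minus females was -1.80 (adjusted p = 0.00029).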

How the results depend on the processing

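Of 2155 values of single genes under other settings, 2095 stayed on their side of the threshold, of which 82, none called, took the other sign, 36 lost a call, 24 gained one and 0 reversed while called. Of 1430 values for lists, 1339 stayed close and 91 moved. Without the low-count filter, 1 of the 9 genes, Pparg, was called in the genotype effect on ND in males (0 with it), and 3 in the sex difference of the diet effect in WT and 3 in nulls (1 in each with it). In the diet effect that setting added Fabp1 and Fabp5 in WT females (7 calls, 5 with the filter), Fabp1 in null females, where Pparg was lost (5 and 5), and Fabp5 in null males (6 and 5). Scaled by library size alone, the diet effect added Slc27a1 and lost Slc27a2 in null females (5 calls), added Fabp2 and Slc27a1 and lost Slc27a2 in WT males (6), and added Fabp5 and lost Slc27a2 in null males (5). The sex difference in WT had 2 calls at an adjusted p under 0.1, 2 in DESeq2 and 0 when only the groups compared were fitted. Leaving out 1 library gave 3 to 5 calls for the diet effect in WT females, 2 to 4 for males versus females and 0 to 2 for the sex difference in WT, in which 8 of 16 fits changed the count. The causes were not tested.

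Replicate numbers showed no strong pairing of the libraries. Of 48 pairs of same-numbered libraries from different groups of a sex, 5 had a correlation of deviations from the group means over 0.1 (lowest -0.19, highest 0.29). In 18 pairs the same number was the best of 4 possible partners. It was so for every number between ND-fed Cyp2b-null and CDAHFD-fed WT females, at 0.046 to 0.069, so a weak pairing is not excluded. The block cannot test males versus females, since replicates lie within a sex and the contrast then set male replicate 4 against female replicate 1. That fit called 2 of the 9 genes (4 without) and 728 of all genes (2496 without), from which nothing is concluded. The calls lost there were Fabp4 (-1.15, adjusted p = 0.123) and Fabp5 (-1.12, adjusted p = 0.205). In the diet effect, which lies within a sex, Fabp5 gained a call in null males (1.06, adjusted p = 0.00858).

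The genotype effect on ND, counted over all genes, had 10 calls in females (23 in DESeq2, 122 without the filter) and 5 in males (72 and 170, 11 at an adjusted p under 0.1, 8 with the block, 3 scaled by library size and 2 with only the compared groups fitted). On CDAHFD it had 3 in females (5 in DESeq2, 69 without the filter) and 4 in males (51 without the filter). The interaction had 0 in females (2 in DESeq2, 46 without the filter, 1 at an adjusted p under 0.1) and 1 in males (3 in DESeq2, 95 without the filter, 2 scaled by library size). The sex difference in WT had 136 (220 in DESeq2, 469 without the filter, 219 at an adjusted p under 0.1, 79 with only the compared groups fitted) and in nulls 477 (923 without the filter, 983 at an adjusted p under 0.1). Males versus females had 2496 (1534 with only the compared groups fitted). Leaving out 1 library moved some of these counts by over 1.5 times. The sex difference in WT went to 261 without CDAHFD-fed WT male replicate 1, 90 without replicate 2 and 87 without replicate 4 of that group, 90 without ND-fed WT male replicate 2 and 84 without ND-fed WT female replicate 3. In nulls it went to 238 without CDAHFD-fed null male replicate 3 and to 298 and 311 without ND-fed null male replicates 2 and 4. Males versus females went to 1579 without ND-fed WT male replicate 2. The genotype effect in males ran from 2 to 29 on ND, the highest without ND-fed WT male replicate 2, and from 1 to 3 on CDAHFD, and the interaction from 0 to 1 in females and 0 to 3 in males. The sum of Fabp5 with its pseudogene Gm6166 was chosen after seeing the data. So were the lists without CDAHFD-fed Cyp2b-null female replicate 3 and without CDAHFD-fed WT male replicate 1. Lists were not refitted without ND-fed WT male replicate 2 or 4. Low counts limit Fabp4 and Fabp7 in ND-fed males, with as few as 4 and 5 counts in a library.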
